A study of Mus musculus with 2 samples.

Results

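First-intron distal peaks are DNase I hypersensitive sites of the embryonic mouse limb that lie in the first intron of a protein-coding gene but outside its promoter. They were taken from the peaks that 2 DNase-seq libraries had in common. Peaks of the 2 libraries on chromosomes 1 to 19 that overlapped by at least 1 bp were merged, and a merged peak was kept when its centre was over 1 kb from every protein-coding start, in no exon, and in the first intron of the longest protein-coding transcript of a gene in GENCODE M21. This gave 9839 members, 8.51% of 115658 shared peaks. The others comprised 26842 promoter peaks within 1 kb of a start, 23839 distal peaks in later introns, 45356 distal peaks outside protein-coding genes, 3379 in other introns and 6403 in exons.

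DNase-seq marks places where nuclear DNA is open to cutting by DNase I, as it is where transcription factors displace nucleosomes. The first intron is transcribed right after the first exon, and in vertebrates it is commonly the longest intron of a gene. It is known to hold enhancers, silencers, alternative promoters and the downstream shoulder of the promoter's own open chromatin. In the limb bud at this stage, mesenchyme is being patterned by Hedgehog, FGF, Wnt, BMP and retinoic acid signals, and many known limb enhancers lie in introns, some of them in genes other than the one they regulate.

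Both libraries came from limb tissue of B6NCrl mouse embryos at 11.5 days, from pooled males and females, and are labelled biological replicates 1 and 2. There was no other tissue, age or treatment and hence no control group, so no test over samples was possible. Intervals below are 95% intervals that cover counting error over regions only. A limb is a mixture of cells, so fewer open cells and less opening per cell cannot be told apart. All 13 limb mesenchyme markers examined had an open promoter (a shared peak centred at most 1 kb from a start), as did 5 of 7 surface ectoderm and ridge markers, 5 of 6 neuronal markers, 3 of 6 muscle precursor and 3 of 6 endothelial markers. The count was 1 of 4 for erythroid markers, 0 of 6 for leukocyte markers and 0 of 6 for liver markers. Those without such a peak included Fgf8, Krt14, Pax7, Myf5, Pecam1 and Klf1. Over all protein-coding starts the share was 63.0%, counted per start and not per gene. Which cells gave these peaks was not tested.

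The members shown here are the strongest ones, by the mean percentile rank of the authors' signal over the 2 libraries. Each line gives the central 150 bp on the forward strand of GRCm38 (mm10), read from RefSeq's copy of that build. Aida encodes an axin-interacting protein and is on the forward strand. Its member at chr1:183299236-183299385 was 2.26 kb from the host start and had signal 143 in replicate 1 and 131 in replicate 2, the highest rank of all 9839.
Aida: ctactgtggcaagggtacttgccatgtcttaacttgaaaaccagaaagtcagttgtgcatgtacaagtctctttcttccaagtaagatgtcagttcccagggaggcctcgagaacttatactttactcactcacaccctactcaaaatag
Mnt encodes a MAX-binding repressor of the MYC network and is also on the forward strand. Its member at chr11:74832216-74832365, 1.37 kb from the start, had signals of 126 and 136.
Mnt: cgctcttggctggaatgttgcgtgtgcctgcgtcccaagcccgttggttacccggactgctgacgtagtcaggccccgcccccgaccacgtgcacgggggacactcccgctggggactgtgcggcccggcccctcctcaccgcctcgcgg
These 2 members show the span of base composition among strong ones. The Aida window had 1 CpG and 43.3% GC, and the Mnt window had 16 CpG and 71.3% GC. The other three of the strongest 5 were in 4931414P19Rik with 12 CpG, Gm20388 with 16 and Iffo2 with 7.

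First introns held more shared peaks per base than later introns or sequence outside protein-coding genes, and most of the excess over later introns lay within 5 kb of a start. Eligible sequence, meaning sequence that could have held a member, came to 197.9 Mb of first introns. Over it the density was 49.7 members per Mb (48.7 to 50.7). It was 40.9 per Mb in later introns and 33.1 outside protein-coding genes. The order was the same in each library alone, at 76.9, 60.4 and 49.4 per Mb in replicate 1 and 73.7, 57.7 and 48.3 in replicate 2. First introns thus had 1.21 times the density of later introns (1.19 to 1.24).

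Members sat nearer to starts than other distal peaks did. Their median distance to the nearest protein-coding start was 10.2 kb, with quartiles at 2.50 and 32.8 kb, against 34.8 kb for later-intron peaks and 57.6 kb for peaks outside protein-coding genes. Once distances were matched, the ratio to later introns was 1.15 (1.13 to 1.18) and the ratio to sequence outside protein-coding genes was 1.08 (1.06 to 1.11). Matching on the distance to the host gene's own start gave 1.16 over later introns.

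At 1 to 2 kb from a start, first introns held 134 members per Mb, later introns 62.0 and sequence outside protein-coding genes 83.6. The ratio over later introns was 2.16 (1.99 to 2.35) there, with 2.44 in replicate 1 and 2.31 in replicate 2. At 2 to 5 kb it was 1.19 (1.12 to 1.28). At 5 to 10 kb it was 0.964 (0.900 to 1.03), and from there outward the shared-peak ratio stayed between 0.895, at 50 to 100 kb, and 1.07, at 10 to 20 kb. Beyond 5 kb, first introns and later introns therefore differed by little in density, in both directions. Against sequence outside protein-coding genes the ratio was 1.60 (1.496 to 1.72) at 1 to 2 kb, 0.836 (0.783 to 0.892) at 5 to 10 kb and 1.41 (1.304 to 1.52) beyond 100 kb.

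**Figure D1:**
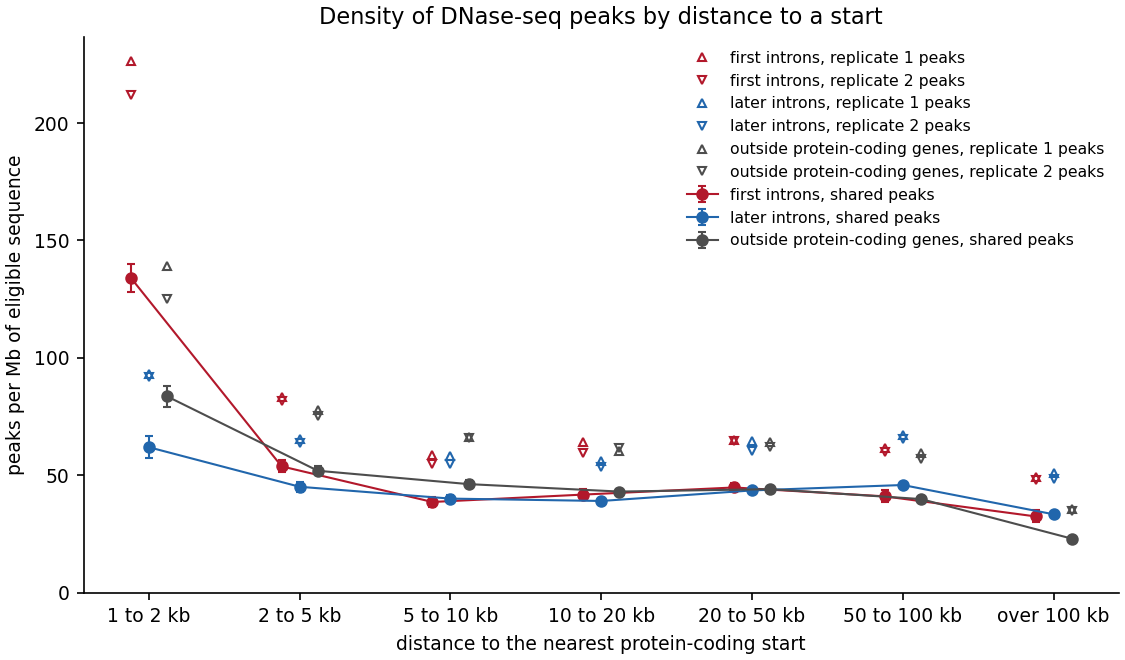
Peaks per Mb of eligible sequence (vertical axis) in 7 classes of distance to the nearest protein-coding start (horizontal axis). Filled circles are shared peaks with 95% counting intervals and open triangles are the peaks of each library alone. First introns stand at 134 shared peaks per Mb at 1 to 2 kb and come together with later introns from 5 to 10 kb outward.

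In finer steps the first-intron density fell from 204 per Mb at 1.0 to 1.2 kb to 151.2 at 1.2 to 1.4 kb and 84.8 at 1.8 to 2.0 kb, reaching 43.4 at 4 to 5 kb. Over the same steps later introns went from 72.4 to 55.7, 61.3 and 38.1 per Mb. Sequence outside protein-coding genes went from 120.3 to 88.3, 64.2 and 47.7. The 1 kb limit of the rule cuts through this slope. In first introns, 666 shared peaks lay just inside it, at 1.0 to 1.2 kb, and 937 just outside, at 0.8 to 1.0 kb, with 4.88 and 5.86 CpG per window.

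The excess near starts was largest beside starts that were themselves open. A start was called open when a shared peak was centred within 1 kb of it, and 63.0% of the 52063 protein-coding starts were. Of the members, 7675 (78.0%) had an open start as their nearest, against 58.0% of later-intron peaks and 71.2% of peaks outside protein-coding genes. At 1 to 2 kb from an open start, first introns held 198 members per Mb, later introns 117 and sequence outside protein-coding genes 122. The ratio over later introns was 1.69 (1.52 to 1.88). At 1 to 2 kb from a start without a shared peak, the 3 densities were 38.4, 37.2 and 32.2 per Mb, and the ratio was 1.03 (0.871 to 1.23). Of first-intron sequence in that distance class 59.9% had an open nearest start, against 30.9% of later-intron sequence. For the peaks of single libraries, starts were still called open by shared peaks. The ratios beside open and closed starts were 1.90 and 1.03 in replicate 1. In replicate 2 they were 1.72 and 1.17, the latter with an interval above 1 (1.02 to 1.35).

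**Figure D2:**
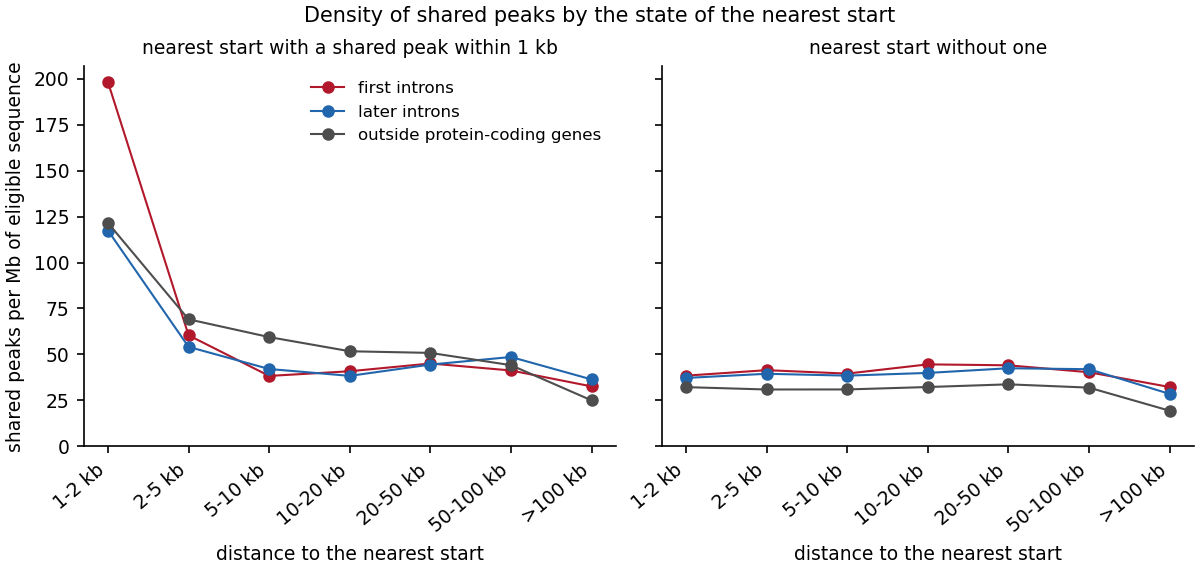
Shared peaks per Mb of eligible sequence (vertical axis) by distance to the nearest start (horizontal axis), for sequence whose nearest start has a shared peak within 1 kb (left) or has none (right). On the left first introns rise to 198 per Mb at 1 to 2 kb, and on the right the first-intron and later-intron lines run together between 28.5 and 44.6 per Mb.

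Away from open starts, first and later introns differed little in density and both exceeded sequence outside genes. Where the nearest start had no shared peak, first introns held 41.1 members per Mb over all distances, later introns 38.2 and sequence outside protein-coding genes 25.96. The matched first-intron ratio over sequence outside protein-coding genes was 1.32 (1.26 to 1.39) there. Beside open starts that ratio was 0.955 (0.929 to 0.981), with 1.00 in replicate 1 and 0.994 in replicate 2. At matched distance the first-intron ratio over later introns was 1.05 (1.00 to 1.10) away from open starts and 1.09 (1.06 to 1.13) beside them. Away from open starts it was 1.09 (1.05 to 1.13) in replicate 1 and 1.09 (1.04 to 1.13) in replicate 2. Beside them it was 1.15 in each library.

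Within single genes, first and later introns were about even. Among 1779 genes with at least 20 kb of eligible sequence in both kinds of intron, the first intron was denser in 830, the later introns in 855 and neither in 94. Median densities were 39.0 and 39.2 per Mb. Pooled over these genes the first introns held 46.7 members per Mb and the later ones 41.5, a ratio of 1.12 (1.09 to 1.16). In single libraries the order of these counts turned. The first intron was denser in 904 genes and the later introns in 823 in replicate 1, and in replicate 2 these counts were 891 and 842.

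Along the intron, members crowded toward the 5' end and were spread more evenly elsewhere. In first introns of 20 kb or more, which held 7155 members, 25.6% were in the fifth of the intron next to its 5' end, and the other four held 16.4%, 18.4%, 19.6% and 20.01% in order. The median distance to the host start was 16.0 kb, and 23.9% of members were over 50 kb from it. For 45.0% of members the host start was also the nearest protein-coding start, so for the rest another start was nearer. The host start is that of the longest transcript, so the nearer start can be another start of the same gene. Of 8043 members that shared an intron with another member, 36.3% had one within 1 kb, and the median spacing was 2.49 kb.

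Members were close in strength to other distal peaks, and slightly weaker than those at the same distances from starts. Their median signal was 52 in replicate 1 and 43 in replicate 2, against 53 and 43 for later-intron peaks and 77 and 76 for promoter peaks. The signal is the authors' own value per peak and is used here only as a rank within its list. In the 2 libraries 6.30% and 4.94% of members were in the top decile of their list, against 6.25% and 3.99% of later-intron peaks, 8.31% and 5.78% of peaks outside protein-coding genes, and 38.6% and 42.4% of promoter peaks. Their mean percentile was 55.9 in replicate 1 and 55.0 in replicate 2. At the members' distances it was 58.3 and 56.5 for later-intron peaks and 60.7 and 59.0 for peaks outside protein-coding genes. The signals of the 2 libraries had a Spearman correlation of 0.87 across members, given as a description, and of 0.88 across later-intron peaks. Hotspots, the wider regions the authors called around peaks, had a median of 295 bp around members in replicate 1 and 320 bp in replicate 2, against 968 and 1193 bp around promoter peaks.

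A first-intron peak of one library was found in the other somewhat less often than a distal peak elsewhere. Of 15222 first-intron distal peaks in replicate 1, 66.4% (65.6 to 67.1) overlapped a peak of replicate 2, and of 14576 in replicate 2, 69.7% (68.9 to 70.4) overlapped one of replicate 1. Later-intron peaks with the same signal ranks were shared at 69.3% and 73.7%, and peaks outside protein-coding genes at 69.4% and 72.6%. The share depended strongly on signal. It was 24.7% and 24.2% in the lowest decile of each list and 99.4% and 99.6% in the highest. A member is thus a peak found in both libraries, and weak first-intron peaks of either library are under-represented among the 9839. Read counts are not given in the files used here, so the depth behind each library is unknown.

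Members held more CpG near starts than far from them. The mean was 2.99 CpG per 150 bp window, against 2.40 for later-intron peaks, 2.72 for later-intron peaks at the members' distances, and 10.9 for promoter peaks. Peaks outside protein-coding genes had 2.82, and 3.37 at the members' distances, so members lay between the 2 other classes once distance was matched. It fell from 4.47 at 1 to 2 kb to 3.03 at 2 to 5 kb and 2.19 beyond 100 kb. Signal rank rose with CpG. The 1325 members with no CpG had median percentiles of 52.4 and 50.8 in the 2 libraries, and the 380 members with at least 10 had 75.8 and 80.3. Member centres lay in repeats less often than eligible sequence did, as in the other distal classes. The centre was repeat-masked in 9.23% of members, in 9.39% of later-intron peaks and in 28.4% of eligible first-intron sequence.

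Some members lay beside starts of transcripts that are not protein-coding. That was so within 1 kb for 659 members, or 6.70% (6.22 to 7.21), against 2.79% of eligible first-intron sequence. Other distal peaks had shares at least as high once distance was matched. Later-intron peaks had 6.62%, or 10.7% at the members' distances, and peaks outside protein-coding genes had 4.996%, or 6.90% at those distances. Among members the share was 16.6% at 1 to 2 kb from a protein-coding start and 1.67% beyond 100 kb. Those 659 had 4.54 CpG per window and median percentiles of 59.7 and 59.6, and the other members had 2.88 CpG and 56.9 and 56.9.

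Word searches in the central 150 bp found words of CTCF, REST, bHLH and GLI factors, and 1 PBX-HOX word, more often in members than beside them. A word was counted when the share of members with it on either strand was at least 1.5 times the share of windows 500 bp to each side, with the interval above 1. Of 43 words, 16 were counted, which is 37.2% of the words tried. Each library alone gave 16 and 17, and later-intron peaks 18. The 2 control words had ratios of 0.692 (0.325 to 1.48) and 0.610 (0.434 to 0.857), so a control word was also below its flank share. A match describes the letters in the window and does not show that a factor was bound.

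The members printed next carry the words with the highest ratios, with the word in capitals. CTCF is the zinc finger protein that anchors chromatin loops. Its word here was CC, 3 free bases and AGGGGGC. The strongest member with it was in Agrp, on the reverse strand, at chr8:105622516-105622725, with signals of 118 and 111.
Agrp: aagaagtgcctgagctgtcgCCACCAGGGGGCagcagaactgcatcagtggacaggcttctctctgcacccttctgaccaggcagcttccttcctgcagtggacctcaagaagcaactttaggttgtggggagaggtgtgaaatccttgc
REST silences neuronal genes outside neurons. Its word was CAGCACC and GGACAG, 2 bases apart, and the strongest member with it was in Fbxl16, on the forward strand, at chr17:25813636-25813805, with signals of 106 and 100.
Fbxl16: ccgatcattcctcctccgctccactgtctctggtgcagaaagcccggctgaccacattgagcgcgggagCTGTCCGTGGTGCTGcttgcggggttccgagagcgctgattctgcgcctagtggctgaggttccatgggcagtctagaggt
NFI factors bind the palindrome TTGGC and GCCAA, 5 bases apart. The strongest member with it was in Il17rd, which encodes the FGF antagonist Sef. It is on the forward strand, at chr14:27072096-27072265, with signals of 98 and 83.
Il17rd: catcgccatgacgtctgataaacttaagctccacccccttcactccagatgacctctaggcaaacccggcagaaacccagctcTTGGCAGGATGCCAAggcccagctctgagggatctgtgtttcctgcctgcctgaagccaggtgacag
CREB and ATF factors bind TGACGTCA. The strongest member with it was in Hnrnpu, a nuclear RNA-binding protein on the reverse strand, at chr1:178336516-178336665, with signals of 120 and 116. It had 20 CpG and lay 1.21 kb from the host start and 186 bp from the start of a transcript of another type.
Hnrnpu: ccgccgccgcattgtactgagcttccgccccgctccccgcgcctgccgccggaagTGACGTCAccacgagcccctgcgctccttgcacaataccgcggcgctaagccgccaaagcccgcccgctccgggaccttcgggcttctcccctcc
NFY binds the CCAAT box, searched as CCAATCAG. The strongest member with it was in Gm28051, on the reverse strand, at chr12:102730536-102730685, with signals of 120 and 121.
Gm28051: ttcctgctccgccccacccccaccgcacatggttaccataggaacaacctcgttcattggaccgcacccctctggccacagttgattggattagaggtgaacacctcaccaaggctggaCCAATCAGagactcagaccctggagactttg

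The CTCF word was strongly centred on members but less common in them than in other distal peaks. It was in 233 members, or 2.37%, and in 0.188% of flanking windows, a ratio of 12.6 (8.91 to 17.8). Later-intron peaks held it in 3.796%, so members had 0.624 times their share (0.541 to 0.719). The ratio was 0.604 in replicate 1 and 0.594 in replicate 2, and at the members' distances it was 0.502. Over all shared peaks the share was 3.02%. By distance, members held the word in 1.86% at 1 to 2 kb and 2.91% at 5 to 10 kb, against 5.15% and 6.61% of later-intron peaks. At 50 to 100 kb the shares were close, at 2.37% and 2.55%. Beyond 100 kb the word was in 15 of 657 members, 2.28%, and in 1.54% of later-intron peaks. The lower share of members was thus seen in each distance class up to 100 kb from a start. Members with the word ranked high, with median percentiles of 74.3 and 71.5.

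The REST word was in 49 members (0.498%) and in 1 of 19678 flanking windows. It was in 0.335% of all shared peaks, and the ratio over later-intron peaks, 1.40 (0.984 to 1.98), had an interval that reached below 1. The RFX word, GTTGCC joined to ATGG, was in 76 members, 7.24 times its flank share (4.47 to 11.7), and in 0.592% of all shared peaks. Its strongest member was in Nol4. The NFI palindrome was in 11 members and 2 flanking windows. The CREB word was in 36 members at 3.43 times the flank share (2.00 to 5.87), and the NFY word in 107 at 2.85 times (2.13 to 3.83). Over all shared peaks their shares were 0.0778% for NFI, 0.678% for CREB and 1.41% for NFY.

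Among words of factors known in limb mesenchyme, E-boxes were the most frequent. The E-box CATCTG, of the kind bound by TWIST and related factors, was in 1915 members (19.5%), 1.74 times the flank share (1.64 to 1.84). CAGCTG was in 1700 (17.3%), 2.31 times (2.16 to 2.46). The share over all shared peaks was 17.1% for CATCTG and 15.1% for CAGCTG. The PBX-HOX word TGATTTAT was in 187 members, 2.44 times (1.98 to 3.02), and in 1.43% of all shared peaks. The GLI word TGGGTGGTC was in 24 members, 2.00 times (1.14 to 3.52), and in 0.235% of all shared peaks. None of these 4 was raised over later-intron peaks with an interval above 1, and CATCTG was 0.914 times as frequent (0.872 to 0.958).

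Most homeodomain words fell short of the limit of 1.5 times the flank share. These words are rich in A and T, while member windows had 50.6% GC against 42.9% in eligible first-intron sequence. The part of base composition in these ratios was not tested. TAATTA was at 1.205 times (1.09 to 1.34), TAATTG at 1.34 (1.23 to 1.47) and the HOX13 word CAATAAA at 1.38 (1.21 to 1.57). Over all shared peaks these were in 4.42%, 6.73% and 3.296%. The MEIS word TGACAG was at 1.11 times (1.04 to 1.19) and in 10.9% of all shared peaks. The longer MEIS-HOX word, TGATTG joined to ACAG, was in 10 members, 2.50 times (0.987 to 6.33), and in 0.0899% of all shared peaks, with an interval that reached below 1. The PITX word TAATCC was below its flank share, at 0.883 times (0.795 to 0.981), and in 4.10% of all shared peaks. The control word GACTATC was lower than that, at 0.610 times. The GATA word AGATAAG was in 0.722% of members and 1.83% of flanks, 0.393 times (0.305 to 0.507). It was in 0.730% of all shared peaks. Later-intron peaks held it in 0.768%, at 0.373 times their own flank share, so the low ratio was not particular to members.

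Of the 43 words, 6 were more frequent in members than in later-intron peaks with an interval above 1, and all 6 were also more frequent in promoter peaks than over all shared peaks. GGGCGG, bound by SP and KLF factors, was in 8.56% of members, 41.9% of promoter peaks and 15.3% of all shared peaks, at 1.49 times its later-intron share (1.37 to 1.62). At the members' distances that ratio was 1.08. The ETS word CCGGAAG was at 1.36 times (1.10 to 1.69), or 1.15 at matched distance, and in 2.86% of all shared peaks. CACGTG, bound by MYC and USF, was at 1.22 times (1.07 to 1.38) and 1.21 at matched distance, and in 3.79% of all shared peaks. The AP-2 word GCCNNNGGC was at 1.24 times (1.13 to 1.35), or 1.17 at matched distance, and in 8.16% of all shared peaks. The NFY word was at 1.32 times (1.04 to 1.66), or 1.23 at matched distance. In replicate 2 alone it was at 1.17 times (0.957 to 1.44), with an interval that reached below 1. The KLF word GGGTGTGG was at 1.29 times (1.05 to 1.58), or 0.997 at matched distance, and in 1.26% of all shared peaks.

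**Figure D3:**
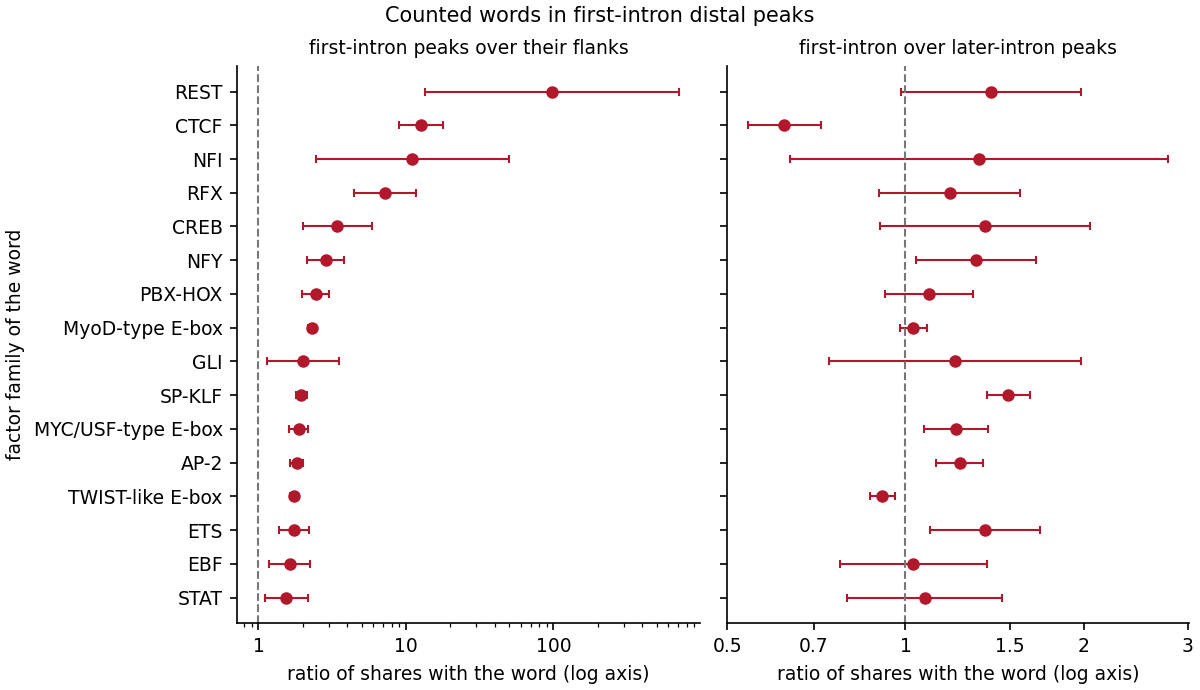
Ratios with 95% counting intervals for the 16 counted words, on log axes. The left panel sets members against windows 500 bp away and the right panel sets them against later-intron distal peaks. CTCF is at 12.6 on the left and at 0.624, the lowest point, on the right.

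Of 13999 genes with eligible first-intron sequence, 3932 hosted at least 1 member, which is 28.1% of them, and 501, or 3.58%, hosted 5 or more. Exactly 1 member was hosted by 2006 genes, 10 or more by 109 and 20 or more by 16. The 501 genes with 5 or more held 43.4% of all members. Hosting followed intron length. Genes with a member had a median of 18.02 kb of eligible first-intron sequence, and genes without one had 2.45 kb. A member was found in 5.03% of genes with up to 1 kb of it and in 92.2% of those with over 100 kb. Density ran the other way, from 119 per Mb in the shortest class to 39.0 in the longest.

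The gene with the most members, Gm20388, hosted 343. Its annotated first intron spans 4.38 Mb of chromosome 8 and encloses 71 other protein-coding genes, among them Foxf1, Foxc2, Foxl1, Irf8, Zfpm1 and Tubb3. These members are 3.49% of the total. Leaving them and their sequence out gave 9496 members and a first-to-later density ratio of 1.195. The ratio was 2.16 at 1 to 2 kb and 0.906 (0.832 to 0.986) beyond 100 kb without them. Gm20388 was left out after its values were seen.

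The next 9 hosts by number had long first introns. Rora, a nuclear receptor, hosted 38 members in 539.9 kb of eligible sequence, with 54 first-intron peaks in replicate 1 and 61 in replicate 2. Maml3, a Notch coactivator, hosted 28 in 223 kb, with 34 and 37. Jazf1, a zinc finger gene, hosted 25 in 173 kb, with 32 and 27. Grip1 hosted 28, the adhesion gene Ntm 26, the junction scaffold gene Magi1 25, the adhesion gene Cadm1 24, and the ankyrin gene Ank3 and Schip1 22 each. Per 10 kb these 9 ranged from 0.47 in Ntm to 1.45 in Jazf1. The other 8 were denser than the first introns of all genes, at 49.3 per Mb, and Ntm was just below that density. Picking hosts by number of members favours dense introns. The 49.3 counts sequence in the introns of several genes once for each gene, unlike the 49.7 given above. The count of Ank3 rested on which transcript stood for the gene, and was 4 with the transcript of longest genomic span.

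**Figure D4:**
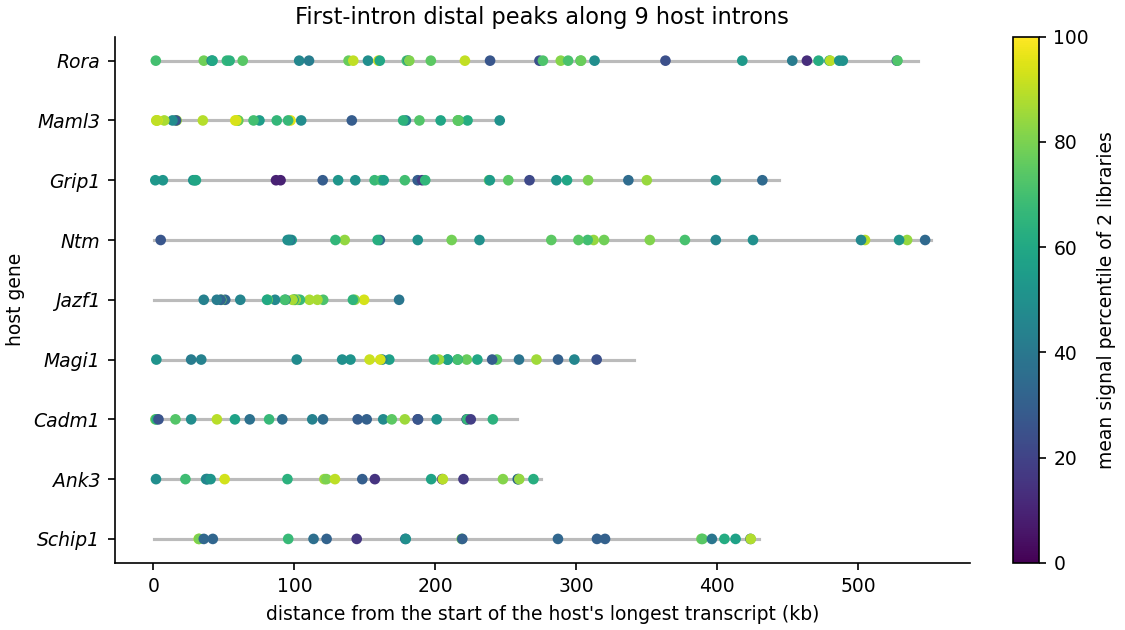
Members (points) along the first intron (grey line) of the 9 hosts with the most members after Gm20388. The horizontal axis is the distance in kb from the start of the host's longest transcript and the colour is the mean signal percentile of the 2 libraries. The 25 members of Jazf1 crowd into 173 kb of eligible sequence, and the 26 of Ntm are spread over 547 kb.

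By density, shorter first introns led. Of genes with at least 5 members and 5 kb, Sim1, a bHLH-PAS transcription factor, came first with 12 members in 7.31 kb, or 16.4 per 10 kb. Replicate 1 had 18 first-intron peaks there and replicate 2 had 17. Sall3, a zinc finger factor of limb mesenchyme, had 15 members in 10.7 kb, or 14.0 per 10 kb, with 21 peaks in each library. Dusp4, a phosphatase that acts on MAP kinases downstream of FGF, had 10 in 8.15 kb, or 12.3 per 10 kb, with 12 and 11. A member is a peak of both libraries, so high counts in each library follow from ranking by members. The members of these 3 introns lay between 1.14 and 11.6 kb from the host start. The other seven were Cacna1g with 8 members, Skap2 with 8, Emx1 with 5, Trib2 with 5, Rnf220 with 5, Bcl6 with 8 and Flrt3 with 5, at 11.6 to 7.20 per 10 kb. Bcl6 was the most uneven of the 10, with 17 peaks in replicate 1 and 9 in replicate 2. Skap2 is the gene beside the HoxA cluster.

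Genes of limb patterning hosted members often and densely. Of 40 limb mesenchyme transcription factors with eligible first-intron sequence, 17 hosted a member (42.5%, 28.5 to 57.8), with 77 members at 181 per Mb and 78.0 per Mb in their later introns. Over all genes the values were 28.1%, 49.3 and 40.9 per Mb. The median gene of that list hosted 0 members, as did the median of all genes, and had 1.23 kb of eligible sequence against 3.98 kb. Zfhx3, a zinc finger homeobox factor, and Sall3 gave 35 of the 77. Another 14 factors of the list, among them Tbx5, Lmx1b, Lhx2, Pbx3 and Tcf4, had no eligible first-intron sequence under the rule.

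Zfhx3 hosted 20 members between 6.21 and 169 kb from its start, with 38 first-intron peaks in replicate 1 and 26 in replicate 2. Its later introns held 59 more shared peaks. Per 10 kb of eligible sequence, the first intron of Zfhx3 held 1.06 and its later introns 0.742. Its strongest member, at chr8:108027736-108027945, had signals of 129 and 117 and is printed as the strongest member in any limb factor named here. Gli3, the Hedgehog effector that sets digit number and identity, hosted 7 between 1.21 and 4.64 kb from its start, with 9 and 11 peaks in the single libraries. Its strongest, at chr13:15465096-15465285, had signals of 72 and 67. Both genes are on the forward strand.
Zfhx3: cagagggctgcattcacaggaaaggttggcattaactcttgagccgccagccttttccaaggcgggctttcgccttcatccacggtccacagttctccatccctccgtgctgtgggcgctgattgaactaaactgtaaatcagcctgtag
Gli3: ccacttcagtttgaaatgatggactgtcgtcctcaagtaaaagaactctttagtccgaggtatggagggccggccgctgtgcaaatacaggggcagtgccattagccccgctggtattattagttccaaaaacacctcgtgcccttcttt
The 2 genes differ in layout. All 7 members of Gli3 were within 4.64 kb of its start although 13.0 kb was eligible, and those of Zfhx3 began beyond 6 kb.

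Hosting followed intron length, and all genes, of which 28.1% hosted a member, had a median of 3.98 kb of eligible sequence. Of genes with 5 to 20 kb of it, 33.6% hosted one. Median eligible lengths were 14.1 kb for Hedgehog and 9.47 kb for FGF genes. In the Hedgehog pathway 9 of 10 genes hosted a member, 27 members in all at 152 per Mb. Besides Gli3 these included Gli2, with 5 members in each library and 5 shared, and the co-receptor gene Cdon with 4. In FGF signalling 10 of 13 genes hosted 47 members at 165 per Mb. Negative regulators led that list. Il17rd hosted 10, Dusp4 10 and Spred2 9. In Il17rd the libraries had 10 and 15 first-intron peaks in 34.0 kb of eligible sequence. Its later introns held 1 shared peak in 20.8 kb.

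Median eligible lengths were 11.9 kb for Wnt and 23.1 kb for BMP and TGF-beta genes. Of all genes with 20 to 50 kb, 67.5% hosted a member. In Wnt signalling 13 of 18 genes hosted 68 members at 99.1 per Mb. The receptor tyrosine kinases for Wnt5a led, with 19 members in Ror1 (28 and 25 peaks) and 18 in Ror2 (23 in each library). Their later introns held 11 and 4 shared peaks in less eligible sequence. Per 10 kb, first and later introns held 0.925 and 0.809 in Ror1 and 1.31 and 1.19 in Ror2. The ligand gene Wnt5b hosted 5 members, the nearest 44.9 kb from its start, with 11 peaks in replicate 1 and 5 in replicate 2. In BMP and TGF-beta signalling 18 of 24 genes hosted 61 members at 87.9 per Mb. The ligand gene Bmp7 hosted 7 of these (16 and 9 peaks), the effector Smad3 6 (15 and 8) and the receptor Bmpr1b 6 (7 in each). With the transcript of longest genomic span Bmpr1b had 14. Bmp7 and Smad3 had more peaks in replicate 1 than in replicate 2 by more than 1.5 times.

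Median eligible lengths were 2.45 kb for retinoic acid and 15.8 kb for Notch genes. They were 11.3 kb for Hippo and TEAD genes and 8.79 kb for cartilage and bone genes. In the retinoic acid pathway 6 of 9 genes hosted 17 members at 128 per Mb. The synthesis enzyme gene Aldh1a2 led with 4, beside the receptor genes Rxra with 4 and Rarb with 3. In the Notch pathway 8 of 10 hosted 57, of which Maml3 and Maml2 held 28 and 20. In the Hippo and TEAD list 8 of 15 hosted 36, and the factor gene Tead1 held 16 with 19 peaks in each library. Cartilage and bone genes hosted members in 13 of 21 genes, led by Chst11 with 6, Sox5 with 5 and Runx3 with 4, and were the one list of those described so far whose first introns were less dense than its later introns, at 71.3 against 81.0 per Mb.

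Guidance, chromatin and matrix genes also hosted members more often than all genes, of which 28.1% did. Hosting was 19 of 22 for guidance genes, 22 of 26 for chromatin regulators and 19 of 28 for matrix and adhesion genes, at 80.9 to 91.6 per Mb. Their median eligible lengths were 20.5, 25.1 and 9.31 kb. The guidance ligand gene Efna5 hosted 21 members, and the chromatin genes Auts2 and Jarid2 11 each. Housekeeping genes hosted a member in 2 of 12 (16.7%, 4.70 to 44.8), Polr2a and Tfrc, with 1 each. That interval held the 28.1% of all genes, and the median eligible length was 3.04 kb. Of the 12, 2 had a first-intron peak in replicate 1 and 5 in replicate 2, against 34.8% and 33.5% of all genes.

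Lists for cell types other than limb mesenchyme differed widely. Over all genes 28.1% hosted a member, at 49.3 per Mb, and only the muscle and neural lists had intervals above that share. Muscle lineage genes hosted in 11 of 19 (139.8 per Mb), surface ectoderm and ridge genes in 7 of 15 (109 per Mb) and neural genes in 8 of 13 (87.9 per Mb). Endothelial genes hosted in 6 of 15, led by Fli1 with 5, and erythroid genes in 5 of 9, led by Zfpm1 with 5. Neural crest and Schwann cell genes hosted in 3 of 11 and germ cell genes in 4 of 10. White blood cell genes hosted in 1 of 10, liver genes in 1 of 8 and heart genes in 1 of 6. The intervals of these 3 shares, 1.79% to 40.4%, 2.24% to 47.1% and 3.01% to 56.4%, all held the 28.1%. Their median eligible lengths were 2.36, 1.97 and 1.90 kb. Of all genes with 1 to 5 kb, 13.3% hosted a member. The heart count differed between libraries, as 1 of the 6 genes had a first-intron peak in replicate 1 and 5 had one in replicate 2. For white blood cell genes and for liver genes these counts were 1 and 2. The hosts in those last lists were Aif1 and Foxa1 with 1 member each and Ryr2 with 5. The Zfpm1 and Tubb3 members are among those also inside the Gm20388 intron.

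**Figure D5:**
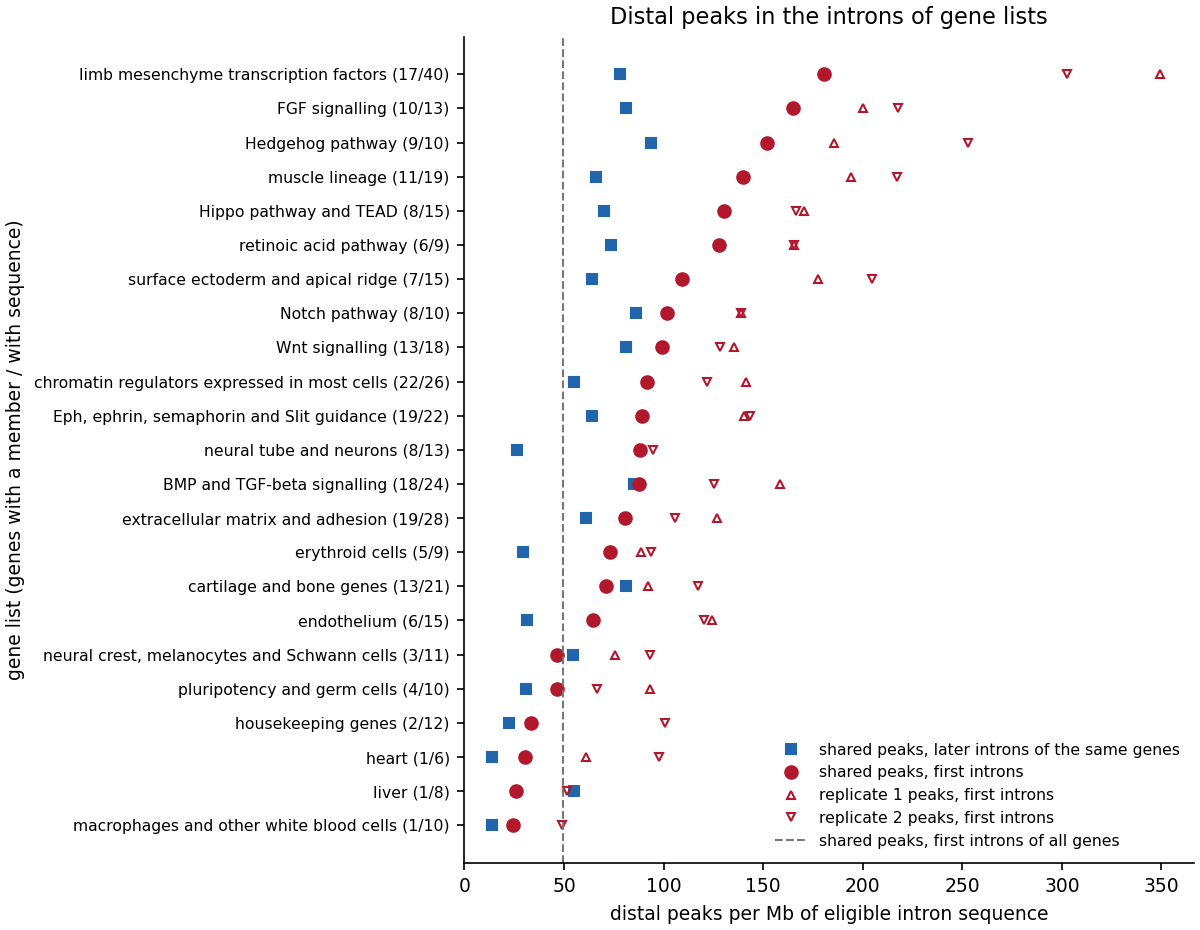
Distal peaks per Mb of eligible intron sequence (horizontal axis) for the gene lists described here, each labelled with its genes that host a member over its genes with eligible sequence. Circles are shared peaks in first introns, triangles the first-intron peaks of each library, squares shared peaks in later introns, and the dashed line the 49.3 per Mb of all first introns. Limb transcription factors stand highest at 181 per Mb and white blood cell genes lowest at 24.5.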

How the data were processed

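The authors deposited, for each of 2 DNase-seq libraries, a list of peaks and a list of hotspots called on that library's own mm10 alignment, per the deposited descriptions. No label or header used here names the aligner or the peak caller. The signal of each peak is the authors' deposited value and was used only as a percentile within its list. The hotspot value is a −log10 q-value with a ceiling of 100, as the authors deposited it. The files give no read counts, so depth is unknown.

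Distances, introns and exons (of any gene) came from GENCODE M21, with the longest transcript taken by spliced length, and sequence from GRCm38. Eligible sequence excluded N bases. Densities have exact Poisson intervals, ratios log-normal intervals and shares Wilson intervals, all at 95%, computed with Python 3 tools (NumPy and SciPy) after checks on simulated data. Named genes were the 10 hosts with the most members, the 10 densest, the leading 2 or 3 of each list, the 5 strongest members and the strongest with each of the 6 words of highest ratio. Members, gene lists and words were chosen with earlier results of these data known. Sequences of chromosome 18 are not printed. The split by open starts, the finer distance steps and the settings without Gm20388 were chosen after seeing the data. A gene list is not reported here.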

Additional observations from a re-analysis of the deposited data

How the results depend on the processing

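The first-intron excess over later introns kept its direction under every alternative run and depended in size on how far from starts members had to lie. The density ratio of 1.21 became 1.059 when peaks within 2 kb of a start were left out, 1.18 with 50% reciprocal overlap, 1.204 with peaks above the median signal, 1.185 with transcripts chosen by genomic span, 1.195 without Gm20388, which was chosen after seeing the data, and 1.27 to 1.28 in single libraries. The distance-matched ratio of 1.15 became 1.03, 1.12, 1.09, 1.122, 1.14 and 1.217 to 1.218 under the same settings in order, and 1.159 by distance to the host start. Members numbered 4905 with peaks above the median signal, and the single libraries had 14576 and 15222 first-intron distal peaks. The share of genes hosting a member was 26.9% with reciprocal overlap, 17.4% with peaks above the median signal, 29.05% by genomic span and 33.5% to 34.8% in single libraries. The median signal percentile was 58.99, 74.1 and 56.9 with reciprocal overlap, with peaks above the median signal and without Gm20388, and 45.49 to 45.51 in single libraries. The share found in both libraries was 60.7% with reciprocal overlap and 79.4% with peaks above the median signal, and a single library gives no such share. CpG per window was 3.57 with peaks above the median signal, 2.61 beyond 2 kb and 2.75 to 2.82 in single libraries. The number of words counted stayed within 1.5 times of 16, at 11 to 18, and the CTCF ratio to later-intron peaks stayed between 0.594 and 0.666. Of 73 named host genes, 38 had fewer members by over 1.5 times with peaks above the median signal and 9 with the 2 kb limit, 3 and 6 of them falling to 0. The 6 were Nes, Dazl, Tfrc, Aif1, Ret and Foxa1. By genomic span 4 had fewer and 1 had more, and in single libraries 13 and 20 had more.

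Counting intervals treat regions as independent, which neighbouring peaks are not. No paired analysis was possible because there is only 1 group. Read depth is unknown, so a peak missing from a library was not detected there and is not shown to be absent.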
